A study of Mus musculus with 4 samples.

Results

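The genes described here are 38 genes of the vascular endothelium and of angiogenesis, the growth of new vessels, measured in brown adipose tissue of wild-type and Tsku knockout mice. They are receptors, ligands, junction proteins, surface markers and transcription factors, each represented by the brightest probe set that the platform annotation assigns to that gene alone. All 38 had such a probe set, out of 22180 genes tested. The knockout and wild-type groups hold 2 samples each, with 1 whole-transcript array per sample. All 4 come from male C57BL/6 mice aged 4 months and fed chow, and the genotype, WT or KO of Tsku, is the single labelled difference. Tsku encodes tsukushi, a secreted small leucine-rich proteoglycan. How the allele was made, and whether the controls were littermates, is not given in the sources used here. The labels call the samples of a genotype biological replicates but name no mice, so p-values cover only the spread between samples, in which technical variation may have a share.

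Brown fat is among the most densely vascularised tissues, since its vessels bring oxygen and fuel and carry heat away. Vascular endothelial growth factors act on receptor tyrosine kinases (KDR, FLT1, FLT4) to start sprouting, Notch signalling through DLL4 limits how many cells lead a sprout, and angiopoietins act through TEK to settle and seal vessels. Hypoxia-inducible factors raise many of these genes when oxygen is short.

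Values are deposited log2 expression values, in which a difference of 1 is a 2-fold change. They carry an offset of unstated origin, so a level is read against background and not against another gene. Background on an array was the 95th percentile of the 1405 probe sets of olfactory and vomeronasal receptor genes, and it lay between 0.63 and 0.81. Of the 38 genes, 34 were above it on all 4 arrays, Apln, Esm1 and Prox1 on some arrays, and Pgf on none. All 14 genes fixed as endothelial markers, from Pecam1 to Plvap, were above it on every array. Brown adipocyte markers were likewise present, with 15 of 16 above background throughout and Ucp1, the uncoupling protein, at 9.52 and 9.38 in the wild-type samples and 9.99 and 10.001 in the knockout samples. Tsku itself was not among the genes read out here, so genotypes rest on the labels. In bulk tissue, fewer endothelial cells and less RNA per cell cannot be told apart.

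RefSeq promoter windows (GRCm38.p6) were at hand for 19 of the 38 genes. The sequences below are the 250 bases before the annotated start of 5 of them, 5′ to 3′ on the gene's strand. Kdr is shown as the VEGF receptor with the largest difference between genotypes, Dll4, Cldn5 and Egfl7 as genes among those that differed most between the 2 knockout arrays, and Egfl7 and Emcn for a composite motif. Capitals mark matches to any of 6 short motifs on either strand.
Kdr, chr5:75978456-75978705, minus strand: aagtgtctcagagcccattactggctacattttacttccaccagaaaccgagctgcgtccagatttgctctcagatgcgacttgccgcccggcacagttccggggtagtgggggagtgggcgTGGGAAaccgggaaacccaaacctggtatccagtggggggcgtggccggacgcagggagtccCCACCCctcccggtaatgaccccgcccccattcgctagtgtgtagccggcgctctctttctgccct
Dll4, chr2:119325534-119325783, plus strand: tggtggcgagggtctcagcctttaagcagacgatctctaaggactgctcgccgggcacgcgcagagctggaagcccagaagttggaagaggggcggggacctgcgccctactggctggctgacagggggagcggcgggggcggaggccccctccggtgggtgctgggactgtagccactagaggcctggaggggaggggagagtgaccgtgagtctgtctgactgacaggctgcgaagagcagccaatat
Cldn5, chr16:18776597-18776846, plus strand: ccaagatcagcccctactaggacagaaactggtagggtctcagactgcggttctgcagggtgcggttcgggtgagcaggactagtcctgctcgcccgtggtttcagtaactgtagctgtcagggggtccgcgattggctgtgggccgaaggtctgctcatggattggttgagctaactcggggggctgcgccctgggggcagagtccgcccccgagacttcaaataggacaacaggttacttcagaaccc
Egfl7, chr2:26580833-26581082, plus strand: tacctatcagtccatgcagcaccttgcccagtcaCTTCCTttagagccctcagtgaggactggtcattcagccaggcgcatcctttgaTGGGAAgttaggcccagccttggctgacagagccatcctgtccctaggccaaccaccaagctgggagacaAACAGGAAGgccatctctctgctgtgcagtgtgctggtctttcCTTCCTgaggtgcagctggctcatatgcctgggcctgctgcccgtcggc
Emcn, chr3:137340828-137341077, plus strand: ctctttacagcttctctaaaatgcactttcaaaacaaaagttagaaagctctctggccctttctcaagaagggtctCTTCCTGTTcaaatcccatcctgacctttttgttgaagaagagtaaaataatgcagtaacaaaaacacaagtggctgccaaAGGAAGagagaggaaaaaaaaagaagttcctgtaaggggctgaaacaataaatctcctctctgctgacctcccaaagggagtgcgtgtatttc
The motifs searched were AGGAAG for ETS factors, AACAGGAA for the composite bound by forkhead and ETS factors together, ACGTG for hypoxia-inducible factors, TGGGAA for the Notch effector RBPJ, ACAAAG for SOX factors and CCACCC for Krüppel-like factors. AACAGGAA and AGGAAG overlap by 5 letters. The composite occurred before Egfl7 and Emcn, 2 of 19 genes, against 2.50% of 27025 genes with a window. AGGAAG occurred before 8 of 19 genes (32.3% of all genes) and CCACCC before 11 of 19 (30.6%). TGGGAA and ACAAAG each occurred before 5 of 19 (24.1% and 18.6% of all genes), and ACGTG before 1, Hif1a (18.5%). Egfl7, which has 3 windows in the table and is printed by the one that holds the composite, carried 3 matches to AGGAAG, and the windows of Dll4 and Cldn5 carried none of the 6 motifs. A match is a description of the letters and not a binding site.

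The genotypes were compared to ask whether loss of Tsku goes with a change in the vascular transcripts of brown fat. No shared shift was measured. In the knockout 19 of the 38 genes were higher and 19 lower. Their median log2 change was 0.01, with a range from -0.58 to 0.51. Over all genes tested 52.6% were higher and the median change was 0.02. With limma and Benjamini-Hochberg adjustment, 0 of the 38 genes had an adjusted p under 0.05, as had 0% of all 22180 genes. At an unadjusted p under 0.05 there was 1 of the 38, Angpt1, against 5.56% of all genes. That count was 0 without either wild-type array and 4 without knockout replicate 2. In 11 of the 38 genes the arrays of the genotypes were fully apart, against 35.2% of all genes. Of these 5 were higher and 6 lower (19.4% and 15.8% of all genes). Of the 34 genes above background on all 4 arrays 19 were higher and 15 lower, and of those 5 and 4 were fully apart. Of all 9927 genes above background on all 4 arrays, 1872 were higher and 1751 lower without overlap. Over the 38 genes the 95% interval reached 0.44 to 1.31 log2 units to either side of the change, 0.56 at the median, so changes smaller than this could not be told from 0 with 4 arrays.

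**Figure D1:**
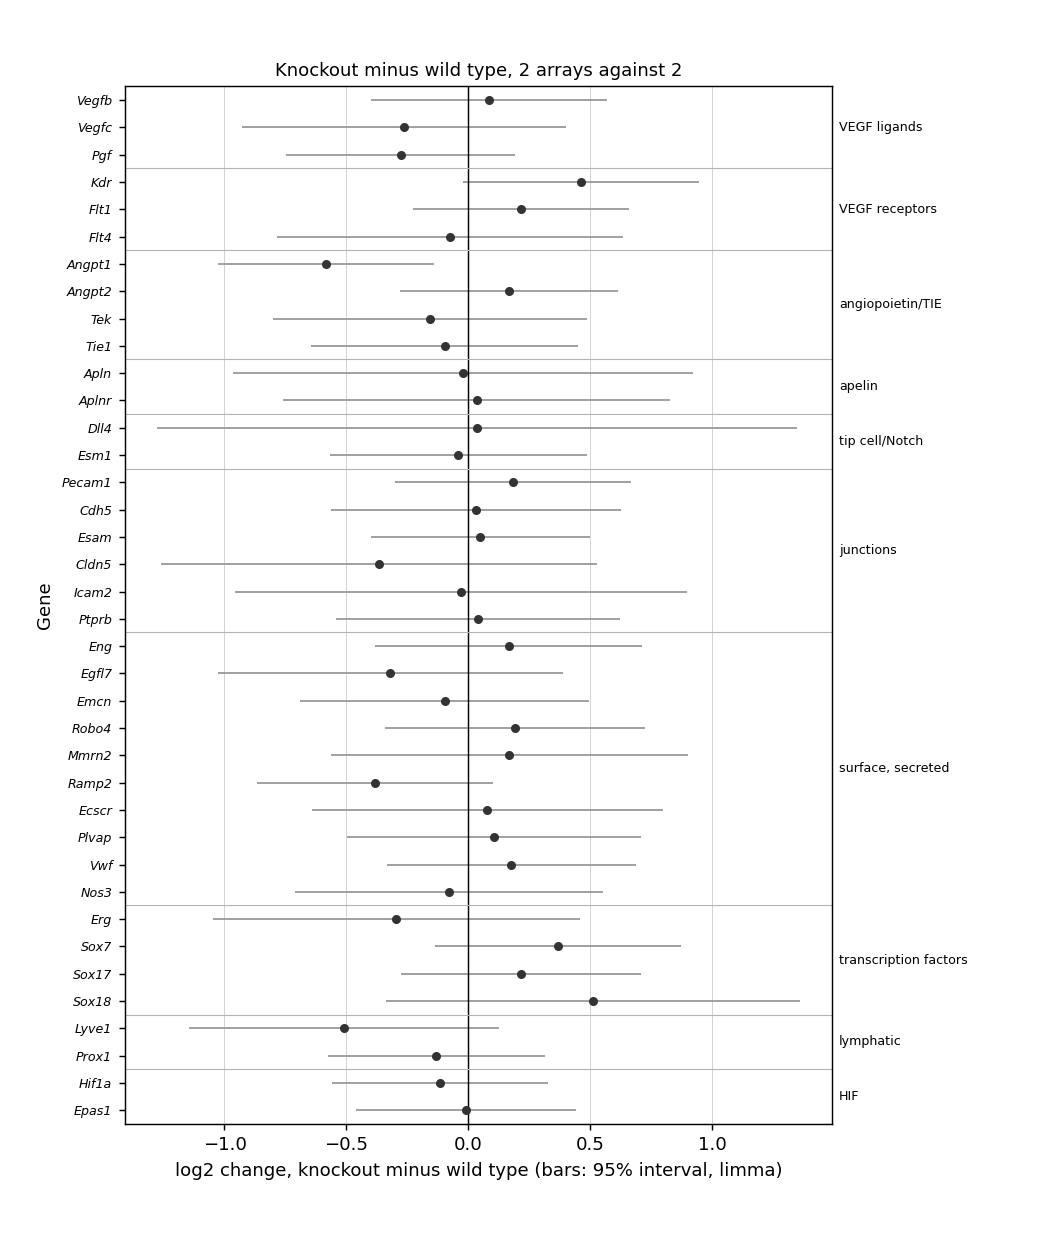
Log2 change of each of the 38 genes (horizontal axis, knockout minus wild type) with its 95% interval from limma, grouped by role. The interval of Angpt1 lies below 0, that of Kdr reaches from -0.02 to 0.94, and those of the other genes also span 0.

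Among the ligands of the VEGF family, Vegfb, which is abundant in oxidative tissues, read 7.56 and 7.55 in the wild-type samples and 7.49 and 7.79 in the knockout samples. Vegfc, the ligand of lymphatic vessel growth, read 2.86 and 2.38 against 2.61 and 2.10, a log2 difference of -0.26 (SE 0.27, limma adjusted p = 0.921). The arrays of both genotypes overlap for these ligands. Pgf, placental growth factor, was below background on all 4 arrays.

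Of the receptors, Kdr, which transmits most of the mitogenic VEGF signal in endothelium, read 6.49 and 6.26 in the wild-type samples and 6.75 and 6.92 in the knockout samples. Both knockout arrays were above both wild-type arrays, with a log2 difference of 0.46 (SE 0.20, limma adjusted p = 0.872) or 1.38-fold. Flt1, a high-affinity receptor that also serves as a decoy, read 4.81 and 4.85 against 5.001 and 5.09. Again the knockout arrays were the higher ones, by 0.22 (SE 0.18, limma adjusted p = 0.902). Flt4, the receptor of VEGF-C, read 1.13 and 1.48 in the wild-type samples and 0.88 and 1.58 in the knockout samples, with the knockout arrays as the lowest and the highest of the 4. Without each array in turn the change of Kdr lay between 0.34 and 0.58.

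In the angiopoietin system the largest difference of the 38 genes was in Angpt1, the agonist of TEK that stabilises vessels and is made mainly by cells around them. It read 5.78 and 5.75 in the wild-type samples and 5.22 and 5.14 in the knockout samples. The samples of each genotype lay close together and the groups were apart, with a log2 difference of -0.58 (SE 0.18, 95% interval -1.03 to -0.14, limma adjusted p = 0.872), or 0.668 of the wild-type signal. Its other probe set, also above background on every array, read 1.37 and 1.31 in the wild-type samples and 1.84 and 0.90 in the knockout samples, a difference of 0.03. This dimmer probe set therefore did not show the difference, with its knockout arrays on either side of both wild-type arrays, and no interval is given for it. With the mean of the probe sets the change of Angpt1 was -0.28. Over all alternatives its limma adjusted p ran from 0.676 to 0.997.

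Angpt2, the context-dependent antagonist, was close to background, with 0.71 and 0.77 in the wild-type samples and 0.85 and 0.97 in the knockout samples. Tek, the angiopoietin receptor, read 5.35 and 5.02 against 4.74 and 5.32. Its change of -0.16 (SE 0.26, limma adjusted p = 0.944) was smaller than the gap of 0.58 between the knockout arrays. Tie1, the partner receptor, also had its lowest value on knockout array 1, with 4.62 and 4.48 in the wild-type samples and 4.23 and 4.67 in the knockout samples.

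**Figure D2:**
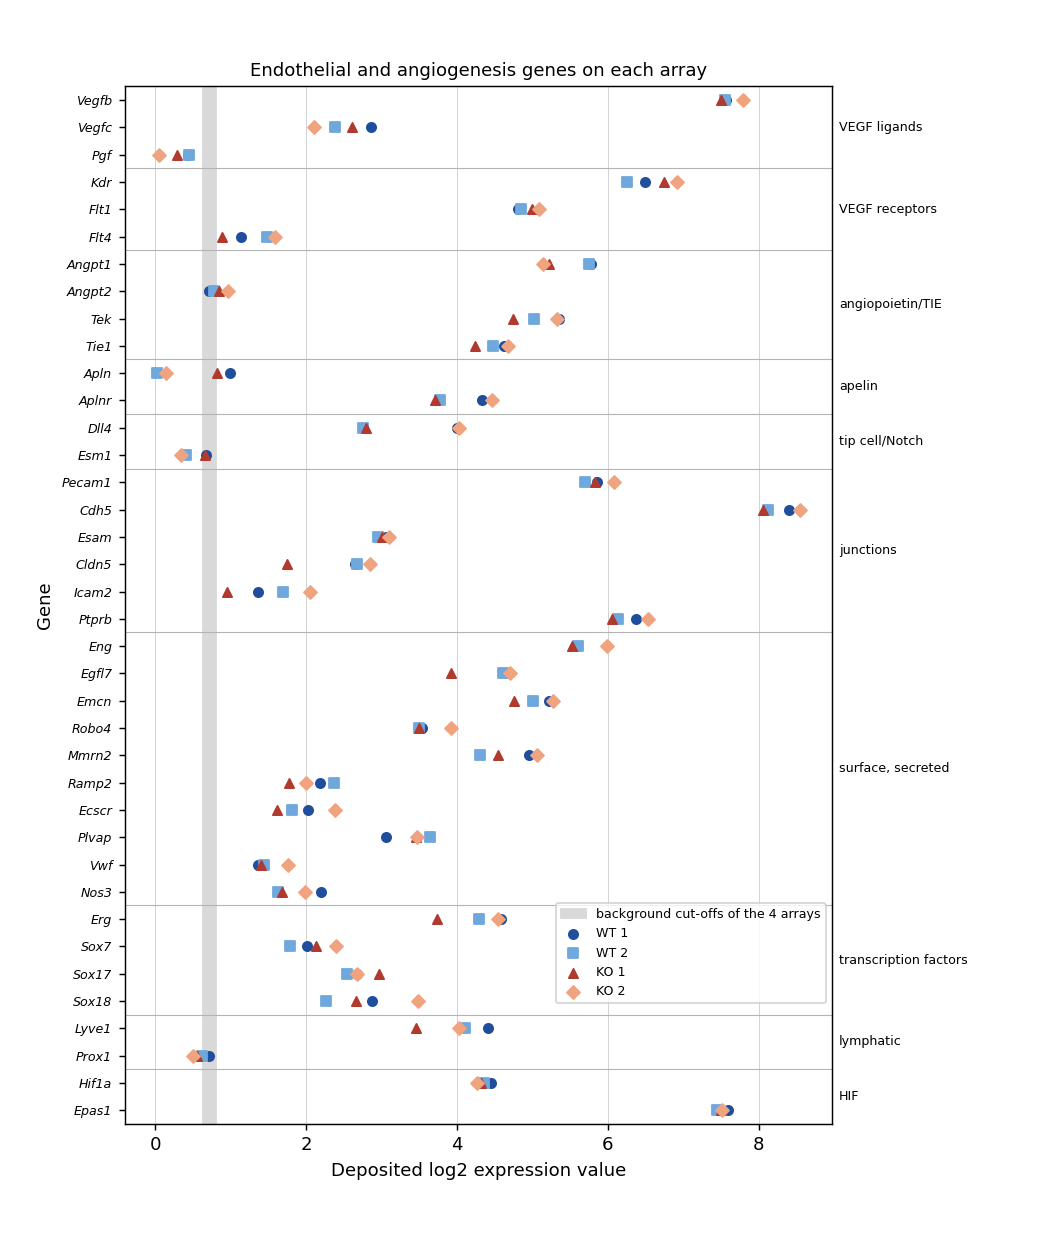
Deposited log2 values of the 38 genes on each of the 4 arrays (circles and squares, wild type; triangles and diamonds, knockout), grouped by role, with the span of the background cut-offs of the 4 arrays shaded. Angpt1 shows both knockout arrays below both wild-type arrays, while Dll4 pairs 1 array of each genotype near 4.0 and 1 of each near 2.8.

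Dll4, the Notch ligand of sprout-leading tip cells, had the widest spread within a genotype. It read 3.998 and 2.76 in the wild-type samples and 2.80 and 4.03 in the knockout samples. High and low arrays were thus found in both genotypes, and the log2 difference between them was 0.03 with a 95% interval from -1.28 to 1.35. Esm1, another tip cell gene, was above background on 1 wild-type array and no knockout array (0.67 and 0.41, against 0.65 and 0.34). Aplnr, the apelin receptor of venous and sprouting endothelium, was likewise higher on wild-type array 1 and knockout array 2 than on the other arrays, with 4.33 and 3.78 in the wild-type samples and 3.71 and 4.47 in the knockout samples. Its ligand Apln read 0.99 and 0.02 against 0.82 and 0.15, and was above background on the array numbered 1 of each genotype only.

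Junction and adhesion genes had changes from -0.37 to 0.18, and the genotypes overlapped in all 6. Cdh5, which encodes VE-cadherin, the core of endothelial adherens junctions, read 8.40 and 8.13 in the wild-type samples and 8.05 and 8.54 in the knockout samples, a difference of 0.03 (SE 0.24, limma adjusted p = 0.991). Pecam1, the platelet endothelial adhesion molecule CD31, read 5.85 and 5.70 against 5.83 and 6.08, a difference of 0.18 (SE 0.20, limma adjusted p = 0.924). For both genes the knockout array numbered 2 was the highest of the 4. Cldn5, the claudin of endothelial tight junctions, read 2.65 and 2.67 in the wild-type samples and 1.74 and 2.84 in the knockout samples. One knockout array was thus well below the other 3 and the other above them, and the difference of -0.37 (SE 0.37, limma adjusted p = 0.920) was smaller than the gap of 1.10 between the knockout arrays. Icam2, an adhesion molecule for leukocytes, had the same gap, reading 0.95 and 2.05 on the knockout arrays against 1.37 and 1.70 on those of wild type. Ptprb, the phosphatase VE-PTP that restrains TEK signalling, changed by 0.04 and Esam by 0.05.

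Among the other surface and secreted proteins, 6 of 10 were higher and 4 lower, with changes from -0.38 to 0.19. Ramp2, the co-receptor for adrenomedullin, was the one gene of these 10 whose genotypes did not overlap. It read 2.18 and 2.37 in the wild-type samples and 1.78 and 2.00 in the knockout samples, a difference of -0.38 (SE 0.20, limma adjusted p = 0.875). Egfl7, a matrix protein secreted by endothelium, read 4.66 and 4.61 against 3.92 and 4.70, so that its difference of -0.32 (SE 0.29, limma adjusted p = 0.909) came with 1 low knockout array. Eng, a co-receptor for TGF-beta family ligands, read 5.59 and 5.60 in the wild-type samples and 5.53 and 5.99 in the knockout samples. Robo4 differed by 0.19, Vwf, von Willebrand factor, by 0.18, Mmrn2 by 0.17, Plvap, which forms the diaphragms of fenestrae, by 0.11, Ecscr by 0.08, Nos3, the endothelial nitric oxide synthase, by -0.08 and Emcn, endomucin, by -0.10. On the knockout array numbered 2 all 10 read higher than on the one numbered 1.

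The transcription factors did not move together. Sox18, a SoxF factor of vascular and lymphatic development, read 2.87 and 2.26 in the wild-type samples and 2.67 and 3.49 in the knockout samples, with 1 knockout array inside the wild-type range. Its difference was 0.51 (SE 0.35, limma adjusted p = 0.895), and it was 0.10 without knockout replicate 2 and 0.92 without knockout replicate 1. The related Sox7 read 2.01 and 1.78 against 2.13 and 2.40, a difference of 0.37 (SE 0.21, limma adjusted p = 0.886). Sox17, the arterial member, read 2.67 and 2.55 against 2.97 and 2.68, a difference of 0.21 (SE 0.20, limma adjusted p = 0.915). For Sox7 and Sox17 both knockout arrays lay above both wild-type arrays, for Sox17 by less than 0.01 at the nearest. Erg, the ETS factor that maintains endothelial identity, read 4.58 and 4.29 in the wild-type samples and 3.73 and 4.55 in the knockout samples, a difference of -0.30 (SE 0.31, limma adjusted p = 0.922) with the knockout arrays on either side of wild-type replicate 2.

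Lyve1, a hyaluronan receptor of lymphatic endothelium that some tissue macrophages also carry, read 4.41 and 4.10 in the wild-type samples and 3.46 and 4.03 in the knockout samples. Both knockout arrays were lower, by 0.07 at the nearest, and the log2 difference was -0.51 (SE 0.26, limma adjusted p = 0.873). The change was -0.22 without knockout replicate 1 and -0.80 without knockout replicate 2. Of 19 macrophage markers 17 were also lower in the knockout, with a median change of -0.39. Their summed linear signal was 297 and 311 in the wild-type samples and 175 and 310 in the knockout samples, lowest on the array where Lyve1 was lowest. Of the 19, 16 were above background on all arrays and 1 on none, and their part in the Lyve1 difference was not tested. Prox1, the master factor of lymphatic identity, was above background on 1 array.

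Both hypoxia-inducible factors differed little between the genotypes. Epas1, which encodes HIF-2 alpha, the form prominent in endothelium, read 7.59 and 7.44 in the wild-type samples and 7.50 and 7.52 in the knockout samples, a difference of -0.01 (SE 0.18, 95% interval -0.46 to 0.44, limma adjusted p = 0.998). Hif1a read 4.45 and 4.36 against 4.31 and 4.26, a difference of -0.12 (SE 0.18, limma adjusted p = 0.940). Its other probe set was below background on all arrays.

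In most of the 38 genes the widest gap within a genotype exceeded the difference between genotypes. On the knockout array numbered 2, 30 of the 38 genes read higher than on the one numbered 1, against 50.3% of all genes and 57.6% of the 9927 genes above background on all 4 arrays. The median gap was 0.33, and 13 of the 38 genes were higher there by more than 0.5 (10.2% of all genes, 14.1% of those above background), while 2 (Apln and Vegfc) were lower by more than 0.5. In wild type, 28 of the 38 genes were higher on the array numbered 1 than on that numbered 2 (52.1% of all genes, 62.4% of those above background), with a median gap of 0.15. Both orders held in 21 of the 38 (27.5% and 36.6%), Cdh5, Tek, Tie1, Dll4, Aplnr, Emcn and Erg among them. Each order alone was common among the 38, so this count is no sign that the orders go together. Over the 38 genes the gap in wild type and the gap in the knockout had r = -0.05. The median deviation of the 38 genes from each gene's mean of 4 arrays was 0.10 and -0.07 in the wild-type samples and -0.15 and 0.21 in the knockout samples, so the wild-type arrays lay between the knockout arrays. In 9 of the 38 genes the change between genotypes was larger than the wider gap within a genotype, against 22.6% of all genes.

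**Figure D3:**
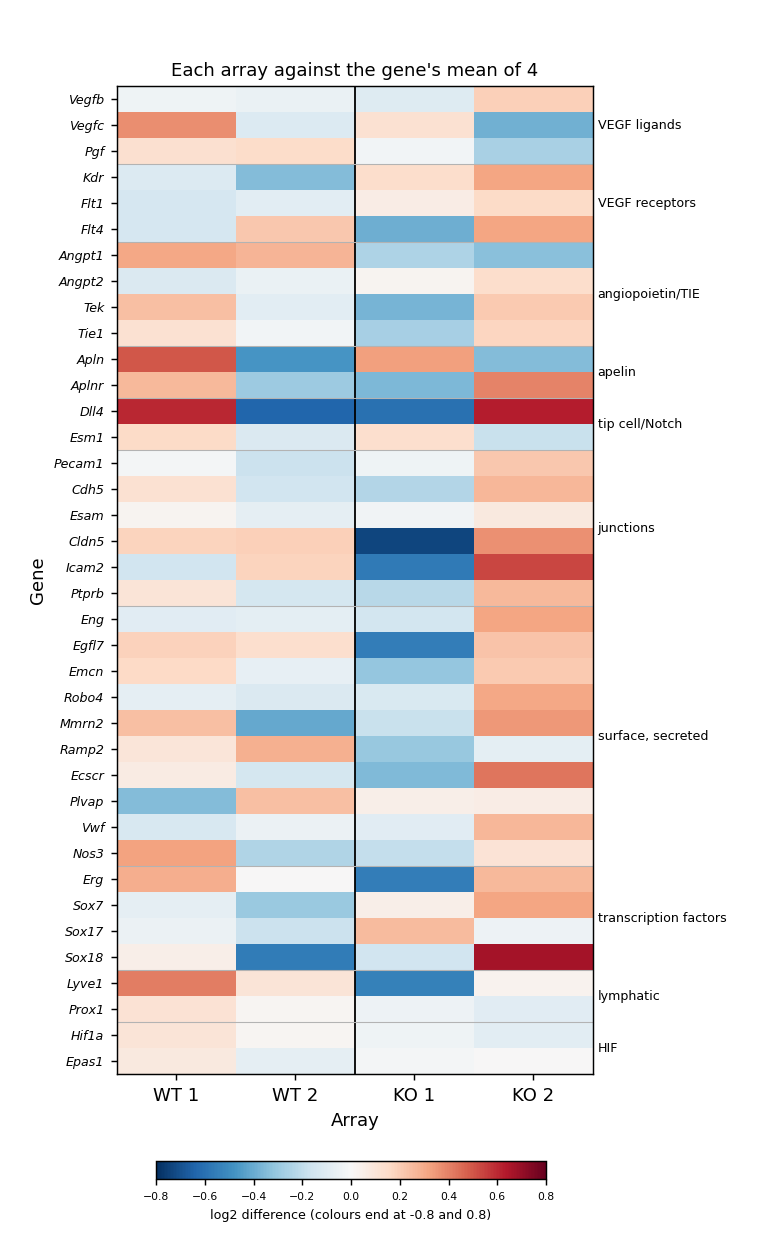
Each array's value minus the gene's mean of the 4 arrays, in log2 units by colour (blue lower, red higher), for the 38 genes in order of role; the line separates wild type from knockout. Most genes are blue on knockout array 1 and red on knockout array 2, and 30 of 38 are higher on the latter.

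Leaving out 1 knockout array therefore turned the balance. Without knockout replicate 1, 29 of the 38 genes were higher than in wild type, and the median change was 0.17. Without knockout replicate 2, 10 were higher, with a median of -0.10. In those fits 0 of the 38 genes passed the limma adjusted p.

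Other cell types also differed between these arrays. Pericyte and smooth muscle markers had median deviations of -0.01 and -0.05 in the wild-type samples and -0.17 and 0.13 in the knockout samples. Of 16 such genes 14 were above background on all arrays and 1 on none. In the knockout 7 of the 16 were higher and 9 lower, with a median change of -0.06. At an unadjusted limma p under 0.05 there were 3 higher and 1 lower (2.89% and 2.67% of all genes), and 0 passed the adjusted p. The summed linear signal of the 16 was 908 and 791 in the wild-type samples and 723 and 829 in the knockout samples. The sum over the 38 genes, not all of which are endothelial markers, was 1432 and 1264 in the wild-type samples and 1229 and 1552 in the knockout samples. Over the 14 genes fixed as endothelial markers it was 678 and 583 in the wild-type samples and 568 and 765 in the knockout samples. Both sums had the same order within each genotype as that of the pericyte and smooth muscle markers. Skeletal muscle markers, 14 of 24 of which were above background on all arrays and 1 on none, summed to 392 and 631 in the wild-type samples and 283 and 122 in the knockout samples, opposite in order to the endothelial genes within each genotype. Liver genes, 7 of 18 above background on all arrays and 4 on none, summed to 301 and 347 against 556 and 446, and fibroblast and progenitor genes, 12 of 12 above background, to 660 and 640 against 566 and 586. Brown adipocyte markers summed to 4767 and 4639 in the wild-type samples and 5203 and 5376 in the knockout samples. Mesothelial genes were near background, with 0 of 8 above it on all arrays and 4 on none, and summed to 11.2 and 10.95 in the wild-type samples and 11.6 and 12.3 in the knockout samples. Of 9 red blood cell genes, including the globins, 1 was listed (Slc4a1, above background on some arrays, with 0.67 and 0.56 against 1.35 and 0.24), so blood content was not measured here. The part of tissue composition in the order of the arrays was not tested.

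**Figure D4:**
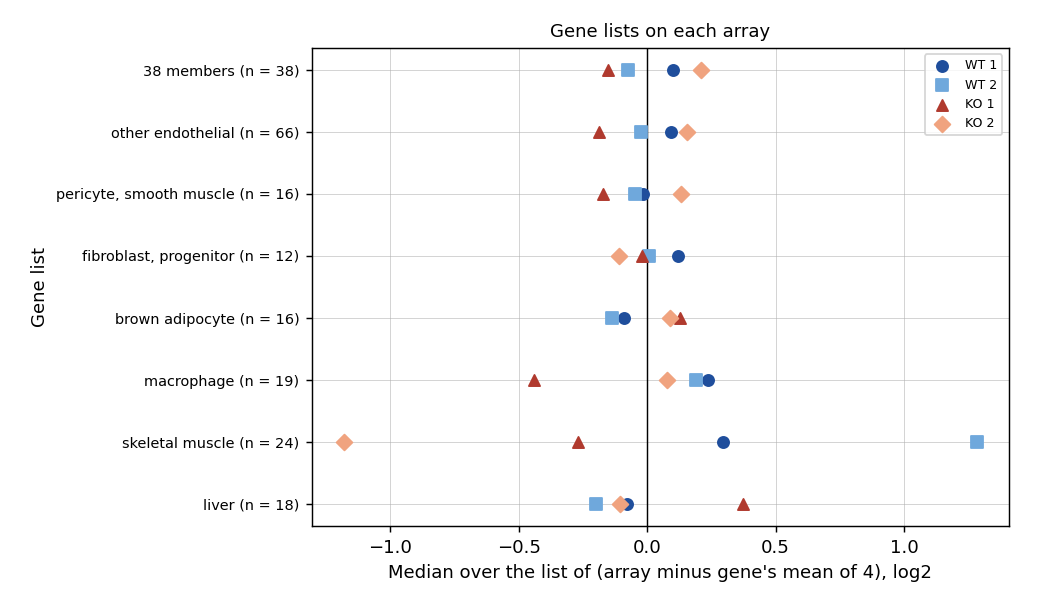
Median, over each gene list, of the array's value minus the gene's mean of 4 arrays (horizontal axis, log2), for the 38 genes and for 7 other lists, with 1 marker per array. The 38 genes, the other endothelial genes and the pericyte list have knockout array 1 lowest and knockout array 2 highest, while the skeletal muscle list has them at -0.27 and -1.18.

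A wider list of 119 measured vascular, Notch, hypoxia and lymphatic genes outside the 38 had 54 higher and 65 lower, with a median change of -0.04. None passed the limma adjusted p, and 10 had an unadjusted p under 0.05, 4 higher (2.89% of all genes) and 6 lower (2.67%). Vegfa, the main angiogenic ligand, read 8.73 and 8.80 in the wild-type samples and 8.70 and 8.72 in the knockout samples, a difference of -0.05 (95% interval -0.49 to 0.39). Of the 7 measured genes of the VEGF, angiopoietin and apelin systems 2 were higher and 5 lower. The VEGF co-receptor Nrp1 differed by 0.21, Vegfd by 0.17 and Angptl4, a lipase inhibitor of the angiopoietin-like family, by -0.37, with 6.79 and 7.83 on the knockout arrays. Apela was below background throughout.

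Notch genes were divided evenly, 9 of 18 higher, with a median of -0.01. Notch1 read 3.15 and 2.91 in the wild-type samples and 2.63 and 3.73 in the knockout samples. The receptor and its ligand Dll4 were thus both higher on knockout array 2. Of the 18 genes 10 were higher there than on knockout array 1 (50.3% of all genes, 57.6% of those above background). The ligands Jag1 and Dll1 were among those lower there. The Notch target Hey2 differed by -0.54, with 1.58 on knockout array 1 and 2.62 on each of wild-type array 2 and knockout array 2. Heyl differed by -0.36, the ligand Dll1 by -0.42 and the ligand Jag1 by 0.24.

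Among 66 other endothelial genes the genotypes were fully apart in 19, against 35.2% of all genes. Of these 9 were higher and 10 lower (19.4% and 15.8% of all genes). The 4 genes with the smallest p were lower in the knockout without overlap. They were picked by that p, so their separation is no further support. Klf2, the transcription factor that laminar flow induces in endothelium, read 3.81 and 4.03 in the wild-type samples and 2.03 and 2.44 in the knockout samples, a log2 difference of -1.68 (SE 0.22, limma adjusted p = 0.813). Its relative Klf4 read 2.60 and 2.40 against 1.13 and 1.85, a difference of -1.01 (SE 0.28). Apold1, an endothelial immediate early gene, read 4.90 and 4.65 against 3.77 and 3.73, a difference of -1.02 (SE 0.19). Gata2, a factor of endothelial and blood lineages, read 3.15 and 3.17 against 2.17 and 2.67, a difference of -0.74 (SE 0.23). For Klf4, Apold1 and Gata2 the limma adjusted p was 0.872. The changes without each array in turn were -1.88 to -1.48 for Klf2, -1.15 to -0.90 for Apold1, -1.37 to -0.64 for Klf4 and -0.99 to -0.49 for Gata2. At an unadjusted limma p under 0.05 there were 8 of the 66 genes, against 5.56% of all genes. The lower ones were the 4 just named (2.67% of all genes). Another 4, chosen after their values were seen, were higher (2.89% of all genes). They were Mcam (0.63), which pericytes also express, Thbd, thrombomodulin (0.80), Arhgef15 (0.58) and Podxl, podocalyxin (0.47). Cd34 read 5.06 and 4.77 in the wild-type samples and 4.14 and 5.14 in the knockout samples, a difference of -0.27. Of these 66 genes 51 were higher on knockout array 2 than on array 1 (50.3% of all genes, 57.6% of those above background). On wild-type array 1, 43 were higher than on wild-type array 2 (52.1% and 62.4%). Both orders given above for the 38 held in 35 of the 66 (27.5% and 36.6%), where each order alone was common.

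**Figure D5:**
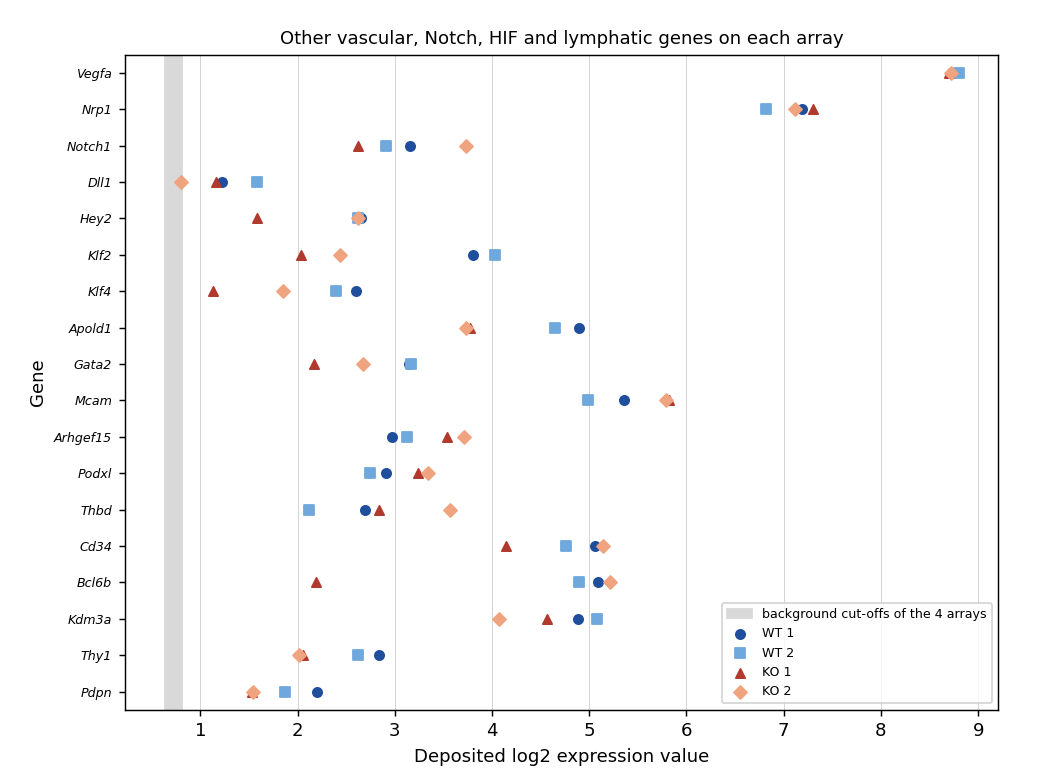
Deposited log2 values of 18 named genes outside the 38 on each of the 4 arrays, with the background cut-offs shaded. Klf2, Klf4, Apold1 and Gata2 have both knockout arrays below both wild-type arrays, Vegfa has all 4 arrays between 8.70 and 8.80, and Bcl6b has 1 array at 2.19 and 3 arrays at 4.89 or more.

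Regulators and targets of the hypoxia-inducible factors were 9 higher and 14 lower of 23, with a median of -0.04. Kdm3a, a demethylase induced by hypoxia, differed by -0.66 (SE 0.23, limma adjusted p = 0.872). Ndrg1 differed by -0.50 and Bhlhe40 by 0.40, and Arnt2 was below background on all arrays. Of 10 other genes listed for lymphatic vessels 4 were higher and 6 lower. Thy1, which fibroblasts and lymphocytes also carry, differed by -0.69, Pdpn, podoplanin, by -0.50, Mmrn1 by 0.43 and Gja4 by -0.10.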

How the data were processed

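RNA from brown adipose tissue of 2 wild-type and 2 Tsku knockout samples was hybridised to whole-transcript arrays, per the labels' protocols. The authors deposited normalized log2 values for 41345 probe sets; the submitters' processing notes list RMA, oligo and limma but give no role or version for any of them. RMA compresses differences of dim probe sets. Scale base 2 is taken from RMA.

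Probe sets with 1 gene symbol in the platform annotation (23521) were reduced to the brightest per gene, giving 22180 genes. The genotypes were compared with limma 3.58.1 under R 4.3.3 (lmFit, eBayes, two-sided, 2 residual and 3.96 prior degrees of freedom), without a block, and adjusted by Benjamini-Hochberg over all genes. Precision is limited by the 4 arrays. Scripts were tested on simulated data. Summed linear signals are sums of 2 to the power of the log2 value.

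Members and lists were chosen with earlier results of these data known. Values are given for Angpt1 (unadjusted p under 0.05), the 12 genes with the largest change above background, Pecam1, Cdh5, Kdr, Tek, Hif1a and Epas1, up to 4 genes of smallest p per pathway list, and Vegfa, Klf2, Notch1 and Cd34; other genes are named for their array pattern. Alternatives were a replicate block, a filter on dim genes, the mean of probe sets, median centring, repeated quantile normalization, a mean trend and each array left out.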

Additional observations from a re-analysis of the deposited data

How the results depend on the processing

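Under 10 alternatives, 0 of the 38 genes passed the limma adjusted p, which ran from 0.676 to 0.99982. Over all genes the count past it, 0 as reported, was 1 with the replicate block and 1 with a mean trend, and 0 to 15 without single arrays (15 without wild-type replicate 1, 2 without wild-type replicate 2). Counts of the 38 at an unadjusted p under 0.05 were 0 with the mean of probe sets, where Angpt1 was lost, 2 with a mean trend, and 0 to 4 without single arrays (4 without knockout replicate 2, 0 without either wild-type array); the number higher in the knockout ran from 10 to 29 and the median from -0.13 to 0.17. Without an array, the lone sample of a genotype is assumed to vary like the other pair. The labels do not say whether replicate numbers pair samples. Deviations of same-numbered arrays had r = -0.07 over all genes and -0.05 over the 38, which with 2 pairs cannot decide it. The block changed no call among the 38, where 0 passed the limma adjusted p with or without it.

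No member changed sign with the block, filter, mean of probe sets, centring, quantile normalization or trend, and 14 kept their sign in every alternative that tested them. The other 24 changed sign without some array. Their ranges were -0.45 to 0.13 for Tek, -0.51 to 0.46 for Apln, -0.20 to 0.12 for Esm1, -0.36 to 0.16 for Emcn, -0.19 to 0.40 for Plvap, -0.36 to 0.20 for Nos3, -0.085 to 0.065 for Epas1, -0.43 to 0.28 for Flt4, -0.35 to 0.41 for Aplnr, -0.58 to 0.65 for Dll4, -0.22 to 0.28 for Cdh5, -0.0039 to 0.10 for Esam, -0.58 to 0.52 for Icam2, -0.20 to 0.28 for Ptprb, -0.15 to 0.49 for Mmrn2, -0.31 to 0.47 for Ecscr, -0.32 to 0.12 for Tie1, -0.92 to 0.18 for Cldn5, -0.71 to 0.070 for Egfl7, -0.70 to 0.11 for Erg, -0.063 to 0.23 for Vegfb, -0.066 to 0.40 for Eng, -0.024 to 0.41 for Robo4 and -0.0054 to 0.36 for Vwf. Probe sets near background (Pgf, Apln, Esm1, Prox1) allow no fold.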

Other observations

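Bcl6b, an endothelial transcriptional repressor singled out after its values were seen, read 5.09 and 4.89 in the wild-type samples and 2.19 and 5.21 in the knockout samples. Its change of -1.29 had a 95% interval from -3.48 to 0.90, since 1 knockout array lay far below the other 3 arrays. On that array Cldn5, Icam2, Egfl7, Erg, Hey2 and Cd34, named after their values were seen, were also at their lowest. Other vascular genes, such as Sox17, Jag1 and Nrp1, were at their highest there.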
